A study of Mus musculus with 18 samples.

Results

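The genes described here are 10 mouse genes of oxidant defence and metal binding: the superoxide dismutases Sod1, Sod2 and Sod3, the peroxide-removing enzymes Cat, Gpx1 and Gpx3, the metallothioneins Mt1 and Mt2, and the stress-induced enzymes Nqo1 and Hmox1. They were listed by name, with earlier results of these data known, and are 10 of the 49184 genes to which the estimated counts were assigned. All 10 passed the filter on low counts, and the smallest estimated count of any of them in any library was 75, for Nqo1.

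They were measured in knee cartilage of male C57bl6 mice, 12 weeks old at the start, after rupture of the anterior cruciate ligament (ACL) of the right knee by a single mechanical load, a model of post-traumatic osteoarthritis. The 18 libraries of total RNA depleted of ribosomal RNA comprised 6 from naïve mice, which had no treatment and were labelled for day 7, and 3 each from the injured right knee and the contralateral left knee at day 1 and at day 7. All mice shared 1 wild-type genotype, and the mice with a rupture, and so both of their knees, also had isoflurane and buprenorphine. Cartilage caps of the femoral condyle were pooled before extraction, from 2 mice per library at day 1 and 4 mice at day 7 by the study's schematic, with 2 knees in each naïve library from 6 mice in all, whereas the series description names pools of 4 mice throughout. The schematic gives partial loss of cartilage at day 7 as the reason for pooling 4 mice. By the schematic, day and pool size thus changed together and cannot be told apart in comparisons between the days. Left and right naïve knees were pooled apart, so that naïve libraries share mice. By the study's methods, injured and contralateral libraries share mouse pools. The labels do not say which libraries these are. All libraries were therefore treated as independent, n counts libraries and not mice, and SDs and p-values measure the spread between libraries and may overstate the precision. Depth, as the sum of estimated counts, lay between 16074762 and 41794005 (median 25465706), and the group medians were 25084935 (naïve), 25344942 (day 1 contralateral), 27495721 (day 1 injured), 21200210 (day 7 contralateral) and 25586471 (day 7 injured).

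Oxidants formed in respiration and inflammation are removed in steps. Superoxide dismutases turn superoxide into hydrogen peroxide, and catalase and the glutathione peroxidases turn hydrogen peroxide into water. Metallothioneins are small cysteine-rich proteins that bind zinc and copper and also react with oxidants. Nqo1 and Hmox1 are classical targets of the transcription factor NRF2 (gene Nfe2l2), which is held inactive by KEAP1 in unstressed cells. In cartilage this system is studied because mechanical overload and inflammatory cytokines raise oxidant production in chondrocytes.

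The cartilage markers Col2a1, Acan, Sox9 and the other 7 chondrocyte genes checked were all detected, with a summed level between 3607 and 13315 CPM (counts scaled to the library total after normalization by the trimmed mean of M-values, TMM). The libraries were not pure cartilage. Erythroid genes, led by the haemoglobin gene Hbb-bs, summed to between 16936 and 65116 CPM, and muscle genes, led by Myh4, to between 2179 and 11196 CPM. As these are bulk samples, fewer cells of a type and less RNA per cell cannot be told apart. Day 7 contralateral replicate 1 stood apart from all others: its 10 most abundant genes took 42.5% of its counts, against 16.6% to 29.8% in the other 17 libraries, and it held the highest erythroid sum (65116 CPM) and the highest chondrocyte sum (13315 CPM). Its TMM normalization factor was 0.696, against 0.829 to 1.16 in the others, which raises all of its CPM values. Results for single pathway genes that rest on this library are given with and without it. Marker counts and list medians against the day 7 contralateral group are given with it alone.

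Per transcript length, the 10 genes stood at very different levels in naïve cartilage. In TPM, which scales counts by transcript length and library total, Gpx1 averaged 361 ± 38.6 (SD, n = 6), Sod1 93.4 ± 12.7, Gpx3 79.5 ± 14.6, Hmox1 38.4 ± 10.6, Mt2 32.3 ± 40.7, Cat 28.7 ± 2.58, Mt1 22.3 ± 16.2, Sod2 17.1 ± 1.84, Sod3 8.43 ± 5.87 and Nqo1 2.88 ± 0.272. Gpx1 was the highest and Nqo1 the lowest of the 10 in each of the 18 libraries. The naïve ranges of Gpx1 and Sod1, of Gpx3 and Hmox1, and of Sod3 and Nqo1 did not overlap. All other neighbours in this order overlapped in range, although Hmox1 and Cat, which are not neighbours of Sod2, lay above it without overlap. By mean TPM, Gpx1 ranked 100 and Nqo1 ranked 10053 among all genes in the naïve libraries. TPM moves with the composition of the whole library, and in day 7 contralateral replicate 1 it was low for most of the 10 genes, so groups are compared below on the CPM scale.

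**Figure D1:**
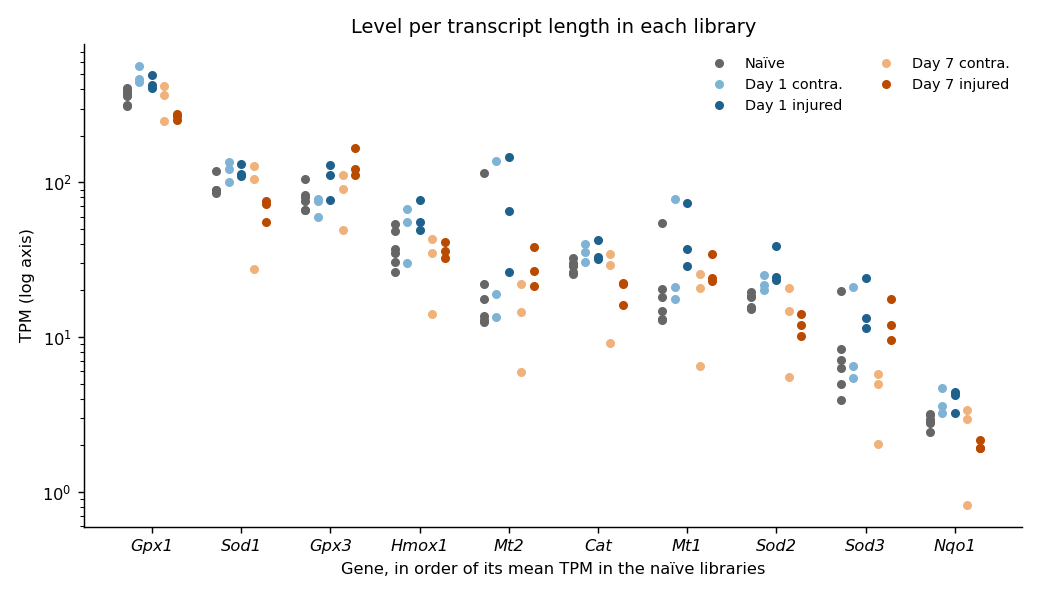
Level of each gene in TPM on a log axis, with 1 point per library, coloured by group, and genes in the order of their naïve mean. Gpx1 is on top and Nqo1 at the bottom throughout, while Mt1, Mt2 and Sod3 have single libraries far above the others of their group.

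Gpx3 and Sod3 were the members called at day 7. Injured cartilage carried 2.09-fold the Gpx3 level of naïve cartilage and 1.78-fold that of the contralateral knee. Sod3 was 3.27-fold higher in the injured than in the contralateral knee. The call was lost when any single library of either group was left out, with a log2 fold change then between 1.53 and 1.81. The other 8 genes were not called in any comparison. A gene was called where the false discovery rate (FDR, Benjamini-Hochberg over all genes tested) of edgeR's quasi-likelihood test was at most 0.05 and the change was at least 1.5-fold. Between day 7 injured and naïve libraries, 1 of the 10 genes was called higher and 0 lower, where 10.4% and 6.11% of the 21129 genes tested were called higher and lower. At an unadjusted p under 0.05 there were 3 of the 10 in either direction, against 41.1% of all genes. The set's median log2 fold change was 0.02 against -0.04 over all genes. Against day 7 contralateral libraries, 2 of the 10 were called higher and 0 lower, where 9.33% and 3.23% of 21262 genes were called. The number of all genes called lower rested on single libraries: it was 686 there, 434 without contralateral replicate 1, 1058 without contralateral replicate 3, 426 without injured replicate 2 and 279 without injured replicate 3, and against naïve cartilage it was 1291, or 797 without injured replicate 3. The set's median log2 fold change was 0.17 there, against -0.05 over all genes (-0.0057 over all genes without contralateral replicate 1). Both comparisons use the same injured libraries.

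**Figure D2:**
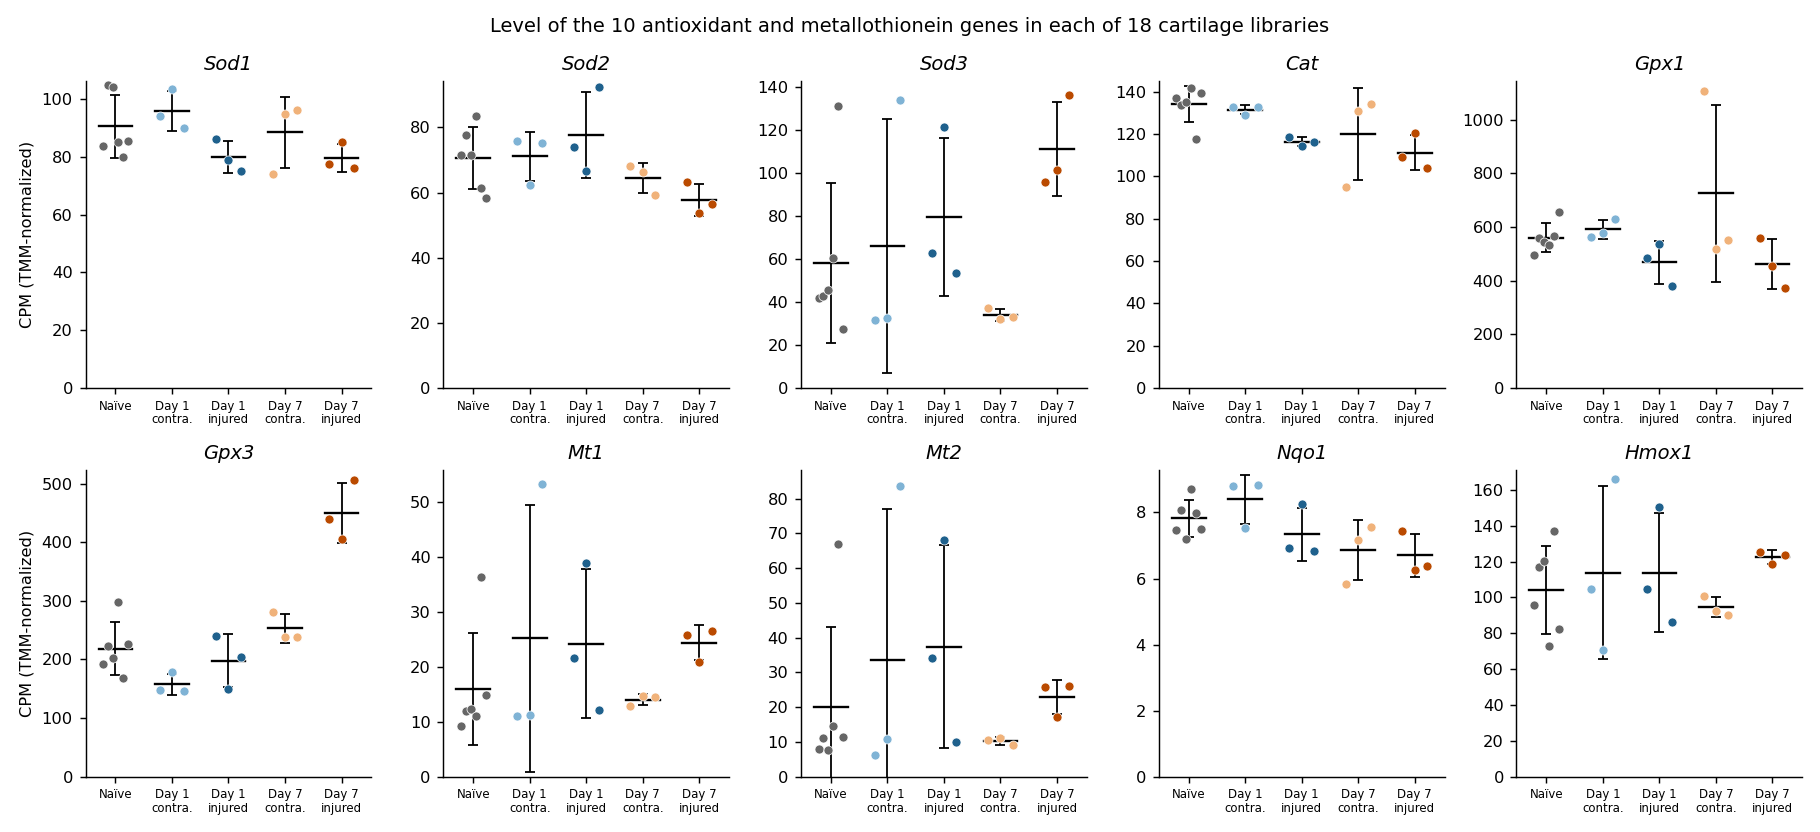
CPM of each of the 10 genes in the 18 libraries, with 1 point per library, a line for the group mean and bars for ± 1 SD (lower ends are cut at 0 in the Mt2 panel). In day 7 injured libraries Gpx3 lies between 404.7 and 505.2 CPM, above all other libraries.

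Gpx3 encodes the secreted glutathione peroxidase of plasma and extracellular fluid, a selenium enzyme (GRCm38 chromosome 11, 54902453 to 54910377, plus strand). In naïve libraries its level ran from 168.7 CPM through a median of 212.6 to 298.6. In day 7 injured libraries it was 440.2, 404.7 and 505.2 CPM, and in day 7 contralateral libraries 281.0, 238.9 and 238.1 CPM. The 3 injured libraries lay above every other library of the series, with no overlap. At day 1 it was 240.1, 149.9 and 204.1 CPM in injured and 147.2, 177.8 and 146.4 CPM in contralateral libraries, which overlapped. Gpx3 was higher in day 7 than in day 1 injured libraries (log2 fold change 1.2, SE 0.192, edgeR FDR = 0.000416), which also differ in pool size. In this comparison 9.04% of genes were called higher and 6.38% lower, and 1 and 0 of the 10 were. The 1347 genes called lower were 884 without day 1 injured replicate 3, and 849 and 891 without day 7 injured replicates 2 and 3. Against naïve cartilage the log2 fold change at day 7 was 1.06 (SE 0.159, edgeR FDR = 0.000132), a fold of 2.09 with a 95% confidence interval from 1.65 to 2.64. Against the contralateral knee it was 0.83 (SE 0.187, edgeR FDR = 0.0043), a fold of 1.78.

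For Gpx3, the contralateral libraries of day 1 and day 7 did not overlap, but their difference was not called. The day 1 contralateral libraries averaged 157 CPM and the day 7 contralateral libraries 253 CPM, without overlap (log2 fold change 0.69, SE 0.187, edgeR FDR = 0.278, unadjusted p = 0.00191). This did not pass the FDR limit. In that comparison 0 of the 10 genes were called, against 4 of 21262 genes (0.0188%). At an unadjusted p under 0.05 there were 2 of the 10, against 12.4% of all genes. DESeq2 called 70 genes higher and 10 lower there, none of them among the 10 members, and limma-voom called 0. The difference between the injury effects, that is injured minus contralateral at day 7 less the same at day 1, was 0.50 for Gpx3 (SE 0.263, edgeR FDR = 0.372). It was 1.45 for Sod3 (SE 0.766, edgeR FDR = 0.372), and 0.40 without day 1 contralateral replicate 3 (edgeR FDR = 0.846). None of the 10 genes was called for this difference by edgeR, by DESeq2 or by limma-voom, against 3.77% of all genes called by edgeR. None had an unadjusted p under 0.05, against 16.3% of all genes. Of all genes, 750 were called higher and 52 lower, which were 393 and 9 without day 7 injured replicate 3, 447 and 18 without day 1 contralateral replicate 3, 483 and 13 without day 1 injured replicate 1, and 979 and 160 by DESeq2. An injury effect that differs between the days was therefore not shown for any of the 10 genes.

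Sod3 encodes the extracellular superoxide dismutase, which binds to matrix proteoglycans (chromosome 5, 52363791 to 52371418, plus strand). Day 7 injured libraries held 96.0, 101.7 and 136.5 CPM and day 7 contralateral libraries 37.2, 32.0 and 33.0 CPM. All injured libraries lay above all contralateral libraries of that day, without overlap. Sod3 rose against the contralateral knee (log2 fold change 1.71, SE 0.555, edgeR FDR = 0.0397). The call was lost without any single library of either group, with an edgeR FDR between 0.0559 and 0.135. The log2 fold change then stayed between 1.53 and 1.81. Naïve libraries ran from 27.4 CPM through a median of 44.3 to 131.4, the highest being replicate 5. Against naïve cartilage the log2 fold change was 0.95 (SE 0.485, edgeR FDR = 0.155). Without naïve replicate 5 it was 1.37 (edgeR FDR = 0.0241) and Sod3 was called. At day 1, levels of 134.4 CPM in contralateral replicate 3 and 121.6 CPM in injured replicate 2 reached those of injured cartilage at day 7, whereas the other day 1 libraries lay between 31.6 and 62.9 CPM.

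Sod1, the cytosolic copper and zinc enzyme, and Sod2, the mitochondrial manganese enzyme, were not called in any comparison. Sod1 ranged from 74.1 to 104.7 CPM over all 18 libraries, with overlapping groups at day 7, and its log2 fold change against naïve cartilage was -0.17 (SE 0.0943, edgeR FDR = 0.193). In day 7 injured libraries Sod2 was 63.3, 53.7 and 56.4 CPM, below all day 1 injured libraries at 73.9, 66.5 and 92.3 CPM. That difference passed the FDR limit (log2 fold change -0.41, SE 0.141, edgeR FDR = 0.0481) but not the 1.5-fold limit, so it was not called. Per length and by count, the Sod2 signal was split differently over its transcripts. Of the Sod2 TPM, 47.1% was assigned to Sod2-207, annotated as a processed transcript without a coding frame, 25.7% to the coding Sod2-201 and 21.5% to the retained-intron transcript Sod2-204, averaged over libraries. Of the estimated counts, on which the CPM values and tests rest, the longer Sod2-201 held the most, with a mean of 1229 per library against 391.9 for Sod2-207 and 84.0 for Sod2-204. With offsets for transcript length, the Sod2 difference from the contralateral knee turned from -0.16 to 0.0068.

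Cat encodes catalase, the peroxide-splitting enzyme of peroxisomes. In day 7 injured libraries it was 109.3, 120.3 and 104.1 CPM, and in naïve libraries it ran from 117.7 through 136.2 to 141.7 CPM. The groups overlapped only by naïve replicate 5, the lowest of its group. The log2 fold change was -0.25 (SE 0.0677, edgeR FDR = 0.0115), which passed the FDR limit but not the 1.5-fold limit. A similar value stood at day 1, where injured libraries held 118.4, 114.2 and 116.4 CPM (log2 fold change against naïve -0.20, SE 0.0674, unadjusted p = 0.00826, edgeR FDR = 0.987). Cat had the smallest spread of the 10 in naïve cartilage, with a coefficient of variation of 6.37%.

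Gpx1, the main intracellular glutathione peroxidase, was 1107 CPM in day 7 contralateral replicate 1 and 517.5 and 551.4 CPM in the other 2 libraries of that group. Day 7 injured libraries held 560.2, 454.6 and 371.1 CPM, which overlapped with these. The log2 fold change of injured against contralateral was -0.65 (SE 0.229, edgeR FDR = 0.0576), and without contralateral replicate 1 it was -0.19 (edgeR FDR = 0.497). It was called lower by DESeq2 (log2 fold change -0.67, DESeq2 adjusted p = 0.0278), and by edgeR without contralateral replicate 2 or 3 or injured replicate 1. Under the alternatives of normalization, filter, length offsets and tool, the log2 fold change ran from -0.67 to -0.40. The shorter transcript Gpx1-204 held on average 40.7% of the Gpx1 TPM in day 7 injured libraries and 13.2% in day 7 contralateral libraries. The high value of contralateral replicate 1 depends on the scale. In TPM it held 249.8, the lowest Gpx1 value of all libraries. Red cell precursors also express Gpx1 strongly, and contralateral replicate 1 held the highest erythroid sum in CPM. The part of these cells in the Gpx1 value was not tested. Against naïve cartilage, which ran from 495.6 through 552.1 to 657.3 CPM, the log2 fold change at day 7 was -0.26 (SE 0.133, edgeR FDR = 0.158). Under the same alternatives this value ran from -0.28 to -0.091.

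**Figure D3:**
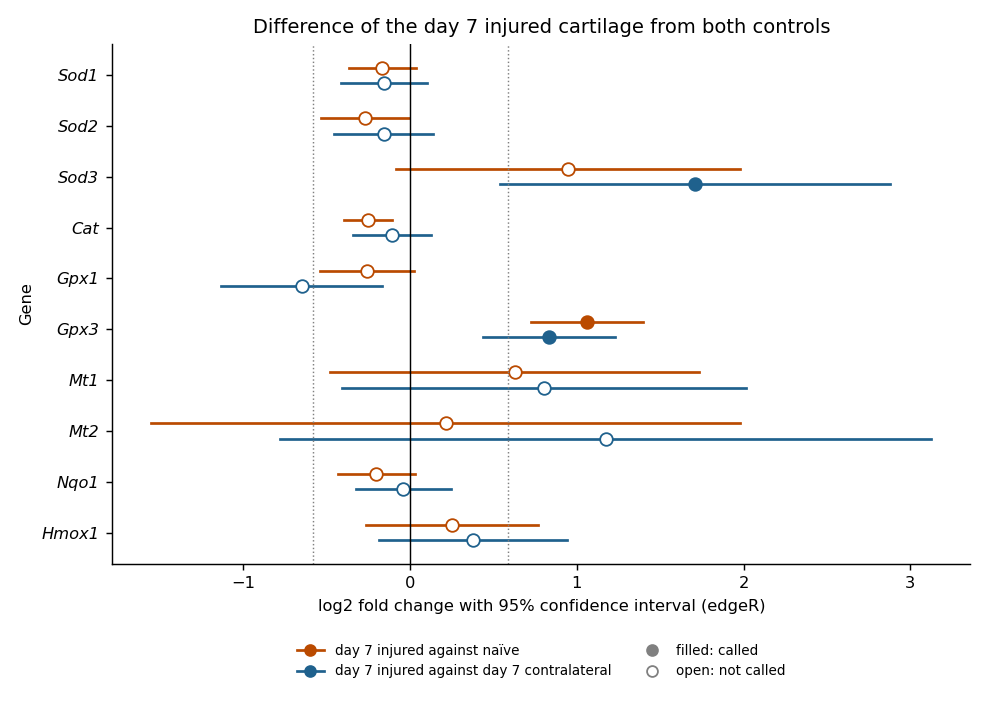
Log2 fold change of the 10 genes in day 7 injured libraries against naïve and against day 7 contralateral libraries, with 95% confidence intervals; dotted lines mark 1.5-fold. Gpx3 is called in both comparisons and Sod3 only against the contralateral knee, while the intervals of Mt1 and Mt2 are the widest.

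Mt1 and Mt2 lie 5513 bases apart on chromosome 8 (Mt2 at 94172664 to 94173568 and Mt1 at 94179082 to 94180327, both on the plus strand). Metallothionein genes are known to be switched on by zinc through MTF1, which binds short metal response elements, and by glucocorticoids. Because their levels went up and down together between libraries, their promoters are shown, from 250 bases before to 50 bases after the RefSeq start (GRCm38.p6). Capitals mark each match to TGCACNC or TGCGCNC, the core of a metal response element, on either strand:
Mt1, chr8:94178839-94179138, plus strand: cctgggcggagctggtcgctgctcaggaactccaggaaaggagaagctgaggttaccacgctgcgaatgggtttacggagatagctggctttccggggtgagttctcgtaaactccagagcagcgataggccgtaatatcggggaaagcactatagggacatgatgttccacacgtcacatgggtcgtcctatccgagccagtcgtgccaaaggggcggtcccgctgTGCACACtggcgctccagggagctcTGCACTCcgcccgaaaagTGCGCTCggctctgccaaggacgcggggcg
Mt2, chr8:94172368-94172667, plus strand: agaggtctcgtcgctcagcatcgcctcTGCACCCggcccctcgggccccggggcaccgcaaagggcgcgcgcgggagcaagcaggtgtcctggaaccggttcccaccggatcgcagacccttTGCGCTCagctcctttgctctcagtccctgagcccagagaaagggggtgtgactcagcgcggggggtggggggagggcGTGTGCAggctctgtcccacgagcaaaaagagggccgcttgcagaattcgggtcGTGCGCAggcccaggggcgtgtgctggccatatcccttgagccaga
The Mt1 window held 3 matches and the Mt2 window 4. Of all 32851 promoter windows of this length, 25.7% held at least 1 match and 1.97% held 3 or more. The Mt2 window also held TGACTCAGC, a match to the core of the antioxidant response element bound by NRF2 (TGACNNNGC, either strand), which 12.4% of windows contained. Of the 8 members with a window in the table, which lacks Sod3 and Hmox1, the metal core was matched in Mt1 and Mt2 alone and the antioxidant core in Mt2 and Sod1 alone. A match of letters does not show that a factor binds there. A window without a match does not show that the gene lacks the element, which may lie outside the window.

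The metallothioneins varied widely between libraries of the same group in naïve and day 1 cartilage, and less at day 7. Mt2 was 67.0 CPM in naïve replicate 5 and between 7.53 and 14.6 CPM in the other 5 naïve libraries. It was 6.30, 10.7 and 83.6 CPM in day 1 contralateral libraries and 34.1, 68.1 and 9.90 CPM in day 1 injured libraries. At day 7 it was 10.5, 11.1 and 8.96 CPM in contralateral and 25.7, 17.2 and 25.9 CPM in injured libraries. The injured libraries lay above all contralateral libraries at day 7, without overlap, whereas at day 1 the highest library of all was a contralateral one. Mt1 had the same 3 libraries on top on a smaller scale, and lay between 9.14 and 26.6 CPM in all others. It was 36.4 CPM in naïve replicate 5, 53.3 CPM in day 1 contralateral replicate 3 and 39.0 CPM in day 1 injured replicate 2. In these 3 libraries Mt2 exceeded Mt1 by 1.84-, 1.57- and 1.74-fold on the CPM scale, and in day 1 injured replicate 1 by 1.58-fold, while in the 14 others the ratio ran from 0.57 to 1.32.

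No test called either gene. For Mt1 the log2 fold change at day 7 was 0.63 (SE 0.519, edgeR FDR = 0.384) against naïve and 0.80 (SE 0.576, edgeR FDR = 0.372) against contralateral libraries. For Mt2 it was 0.21 (SE 0.829, edgeR FDR = 0.869) and 1.17 (SE 0.927, edgeR FDR = 0.425). The values against naïve cartilage moved with single libraries: with 1 left out, Mt1 ran from 0.51 to 1.06 and Mt2 from 0.039 to 1.14, the highest of both without naïve replicate 5 (edgeR FDR = 0.0962 and 0.223). The 95% confidence interval of the Mt2 difference from the contralateral knee ran from -0.78 to 3.13 on the log2 scale. Mt2 overlaps the annotated gene Gm45774, with which reads may be shared.

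Nqo1 reduces quinones, and Hmox1 breaks down heme to biliverdin, iron and carbon monoxide. Nqo1 lay between 5.84 and 8.83 CPM in every library, with a log2 fold change at day 7 of -0.20 (SE 0.109, edgeR FDR = 0.173) against naïve cartilage. In day 7 injured libraries Hmox1 was 125.5, 118.5 and 123.7 CPM, above all day 7 contralateral libraries at 100.8, 92.2 and 90.3 CPM. It was within the naïve range of 73.0 to 136.9 CPM, and neither difference was called (log2 fold change 0.38, SE 0.266, edgeR FDR = 0.364, and 0.25, SE 0.243, edgeR FDR = 0.458). The highest Hmox1 libraries were again day 1 contralateral replicate 3 at 166.2 CPM, day 1 injured replicate 2 at 150.4 CPM and naïve replicate 5 at 136.9 CPM.

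Mt1, Mt2, Hmox1 and Sod3 thus had the same libraries on top. Day 1 contralateral replicate 3, day 1 injured replicate 2 and naïve replicate 5 were the 3 highest of 18 for Mt1, Mt2 and Hmox1, and ranked 2, 4 and 3 for Sod3 behind day 7 injured replicate 3. They belong to 3 different groups, an untreated one among them. The summed synovial fibroblast markers were also high, at 1931, 2044 and 1695 CPM in these 3 libraries and between 519.7 and 1197 CPM in all others except day 7 injured replicates 2 and 3, at 1676 and 2335 CPM. The sum was carried by the most abundant of the 7 markers, Prg4 (lubricin, also made by chondrocytes of the cartilage surface), with 1649, 1775 and 1409 CPM. Without Prg4 it was 282.8, 269.2 and 286.0 CPM, against 212.8 to 297.2 CPM in the other libraries of the same 3 groups. Thy1 was not high in them, at 16.7, 13 and 15.4 CPM against 11.2 to 19.7 CPM in the other libraries of the same 3 groups, and Pdgfra was 104.9, 103.5 and 112.7 CPM against 76.2 to 118.6 CPM. In the same 3 libraries adipocyte markers were low, with a sum of 295.3, 223.1 and 283.3 CPM, led by Cfd, against 418.0 to 874.5 CPM in the others of these groups. The sums of muscle (4177, 3144 and 2836 CPM), osteoclast (1119, 1235 and 1058 CPM) and osteoblast markers (456.6, 607.9 and 499.7 CPM) were each the lowest of their group in these libraries as well. The part of these cell types or of Prg4-expressing chondrocytes in the levels of Mt1, Mt2, Sod3 and Hmox1 was not tested.

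**Figure D4:**
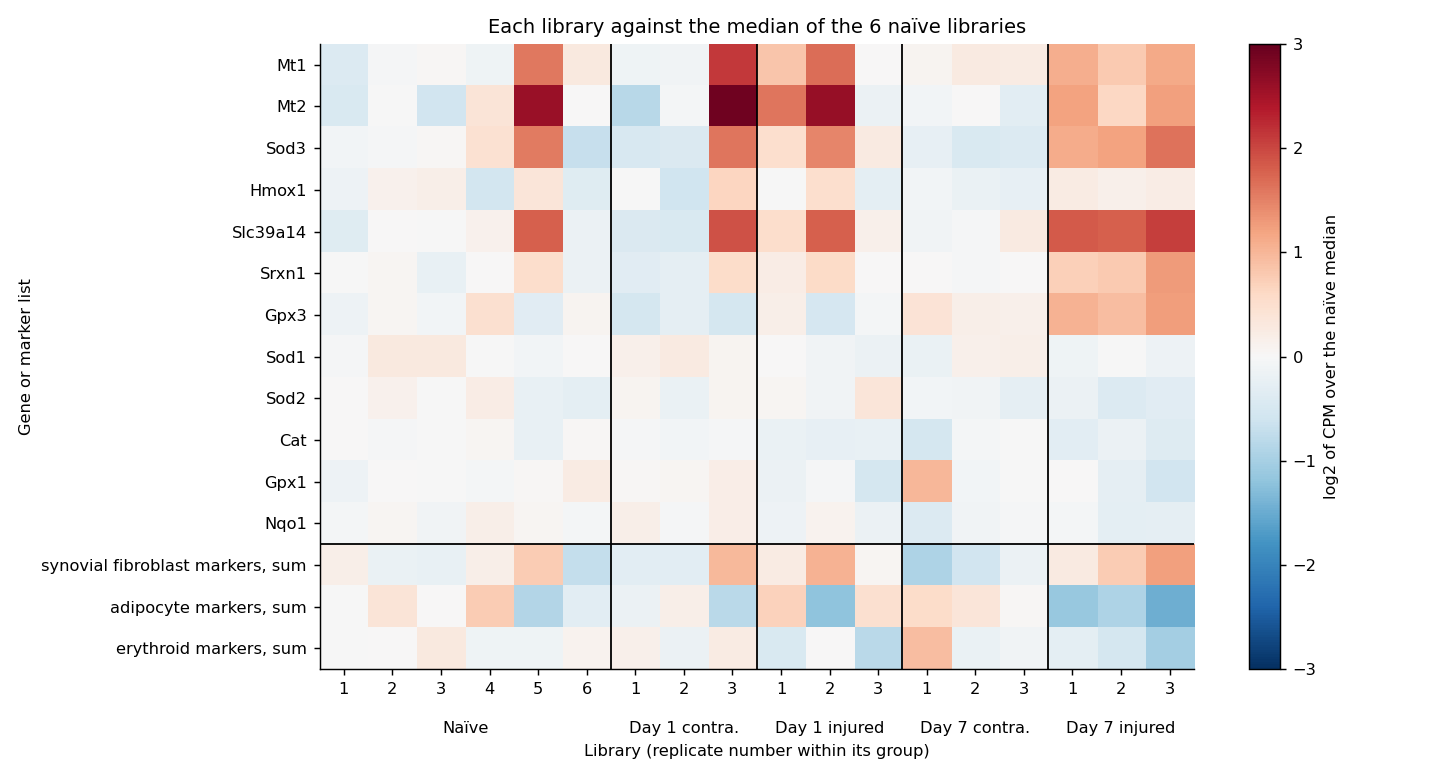
Log2 ratio of each library to the naïve median (colour) for the 10 genes, the pathway genes Slc39a14 and Srxn1 and the summed markers of 3 cell types, with libraries in columns by group. Naïve replicate 5, day 1 contralateral replicate 3 and day 1 injured replicate 2 are red for Mt1, Mt2, Sod3, Slc39a14 and the synovial sum, which Prg4 carries, and the Gpx3 row is reddest in the 3 day 7 injured libraries.

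Markers of other cell types also differed between the groups at day 7. In day 7 injured against naïve libraries, 10.4% of all genes were called higher and 6.11% lower. Of the markers, 3 of 7 synovial fibroblast markers rose (Thy1, Pdgfra, Cd34), as did 3 of 7 endothelial markers (Cdh5, Emcn, Pecam1). In the same comparison 6 of 10 erythroid and 5 of 8 adipocyte markers fell, and of 10 chondrocyte markers 4 rose and Chad fell. Of the other lists, Ibsp (osteoblast) and Ctsk (osteoclast) rose, and Mepe and Sost (osteocyte), S100a8 and S100a9 (neutrophil) and Ms4a1 (B cell) fell. Of macrophage and skeletal muscle markers, 0 of 10 and 0 of 8 were called by edgeR. At an unadjusted p under 0.05 there were 5 and 2 of them, against 41.1% of all genes. DESeq2 and limma-voom called 5 and 2 of the adipocyte markers and 8 and 8 of the erythroid markers. Of macrophage markers DESeq2 called 0 and limma-voom 1, and of muscle markers each called 1. Against the day 7 contralateral knee, 9.33% of all genes were called higher and 3.23% lower. There 4 of 7 synovial markers rose (Pdpn beside the 3 above), and the same 3 endothelial markers rose. Erythroid and adipocyte markers fell in 6 and 5 cases (limma-voom called 5 and 1), and 5 chondrocyte markers rose (Hapln1 among them) and 0 fell. The neutrophil genes Camp, Ltf and Retnlg, the macrophage gene Cd163 and the osteocyte gene Sost fell as well. Of the osteoclast, muscle and B cell markers edgeR called none (DESeq2 and limma-voom also called 0). At an unadjusted p under 0.05 there were 3, 0 and 1 of them, against 31.2% of all genes. No measured marker of the 11 lists was at 0 in all libraries. Of the 11 listed erythroid markers, 10 were measured. The synovial sum averaged 1736 CPM in day 7 injured libraries against 1041 CPM in naïve and 689 CPM in day 7 contralateral ones. Without Prg4 it was 467.3, 542.4 and 564.0 CPM in day 7 injured libraries, above all 15 others, and its part in the Gpx3 and Sod3 results was not tested.

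At day 1 none of the 10 genes was called. Between day 1 injured and naïve libraries edgeR called 0% of all genes. Of the 10, 1 (Cat) had an unadjusted p under 0.05, against 4.54% of all genes. DESeq2 called 15 genes there, all lower and none of them among the 10, and limma-voom called 0. Against the day 1 contralateral knee edgeR again called 0% of genes, as did DESeq2 and limma-voom. There 3 of the 10 had an unadjusted p under 0.05, against 6.55% of all genes. They were Sod1 (log2 fold change -0.26), Cat (-0.18) and Gpx1 (-0.34). Each had all 3 injured libraries below all 3 contralateral ones and an edgeR FDR of 0.755. Between the controls, edgeR called 0% of genes for day 1 contralateral against naïve libraries. Gpx3 had an unadjusted p of 0.0128 there (log2 fold change -0.47, edgeR FDR = 0.99975), where 2.62% of all genes had a p under 0.05. For day 7 contralateral against naïve libraries edgeR also called 0%. None of the 10 had an unadjusted p under 0.05 in that comparison, against 15.1% of all genes. DESeq2 called 1 gene higher and 1 lower in the former and 18 higher and 13 lower in the latter, none of them among the 10, and limma-voom called 0 in both.

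The other genes of the antioxidant and metal pathways were read from 6 lists of 66 genes, of which 63 were tested and Gpx2, Mt4 and Nox1 were too low. At day 7, 8 of the 63 rose and 0 fell in injured against naïve libraries, and 8 rose and 3 fell against contralateral libraries. These are 12.7% higher in both and 4.76% lower in the latter, near the 10.4%, 9.33% and 3.23% of all genes given above, and 0% lower against naïve cartilage stands beside 6.11%. The counts do not set these pathways apart. The median log2 fold change over the 63 was 0.01 and -0.19, against -0.04 and -0.05 over all genes. Of the 9 glutathione genes tested, 2 rose in both comparisons: Gpx7 and Gpx8, glutathione peroxidases of the endoplasmic reticulum, where they take part in oxidative protein folding. Gpx7 was 23.4, 24.1 and 24.0 CPM in day 7 injured libraries and between 2.6 and 6.6 CPM in the 15 others, a 4.82-fold rise against naïve cartilage (log2 2.27, SE 0.17, edgeR FDR = 1.61e-07). Gpx8 was 39.2, 45.6 and 53.7 CPM against 11.6 to 18 CPM in the others, a 3.24-fold rise (log2 1.70, SE 0.106, edgeR FDR = 2.56e-08). These folds are larger than that of Gpx3 on the same scale, at lower CPM.

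Of 13 thioredoxin and peroxiredoxin genes, 3 rose in both comparisons, though against the contralateral knee Prdx1 stayed called without 1 library in 2 of 6 cases and Srxn1 in 5 of 6 (edgeR FDR = 0.0657 without injured replicate 3). Prdx4, the peroxiredoxin of the endoplasmic reticulum, was 43.4, 44.1 and 42.7 CPM in injured libraries and rose 2.12-fold against naïve cartilage (edgeR FDR = 8.95e-06). Srxn1, which repairs over-oxidized peroxiredoxins, rose 1.88-fold (edgeR FDR = 0.00399), and Prdx1, a cytosolic peroxiredoxin, rose 1.57-fold (edgeR FDR = 0.00131). Srxn1 was 34.9, 36.4 and 51.1 CPM in day 7 injured libraries. It was also 31.2, 31.4 and 30.3 CPM in day 1 contralateral replicate 3, day 1 injured replicate 2 and naïve replicate 5. The other libraries of these groups held 16.7 to 24.7 CPM. Srxn1 and Prdx1 are known NRF2 targets. Of the 12 regulators and further targets of NRF2 on a separate list, which leaves these 2 out, edgeR, DESeq2 and limma-voom called 0 in both comparisons. In each, 5 had an unadjusted p under 0.05, as had 41.1% (naïve) and 31.2% (contralateral) of all genes. The part of NRF2 was not tested. Nfe2l2 itself was 71.7, 82.4 and 106.9 CPM in injured libraries (log2 fold change against naïve 0.18, SE 0.0948, edgeR FDR = 0.161) and Keap1 was 47.8, 52.7 and 48.7 CPM (0.18, SE 0.0849, edgeR FDR = 0.118).

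The 12 genes of oxidant production tested did not go one way. Their median log2 fold change was -0.16 against naïve cartilage and -0.36 against the contralateral knee. In each comparison 10 had an unadjusted p under 0.05, against 41.1% and 31.2% of all genes. Of the 12 genes edgeR called 3 and 2, all higher. By limma-voom 3 and 2 were called and by DESeq2 3 and 4, with directions not given here. Nox4, an NADPH oxidase that releases hydrogen peroxide, rose 2.61-fold against naïve cartilage (edgeR FDR = 0.00167) and 4.45-fold against the contralateral knee (edgeR FDR = 0.000171), with 17.1, 20.7 and 21.2 CPM in injured libraries. Duox1, another peroxide-releasing oxidase, rose 3.21-fold against naïve cartilage (edgeR FDR = 7.53e-05) from a low level of 1.52 ± 0.553 CPM (SD, n = 6). Nos3, the endothelial nitric oxide synthase, rose 1.78-fold against naïve cartilage (edgeR FDR = 0.00471), beside the endothelial markers given above. Against the contralateral knee Nos3 was not called (1.51-fold, edgeR FDR = 0.0865), while Duox1 rose (log2 fold change 2.55, edgeR FDR = 0.000421). Duox1 was lowest in contralateral replicate 1, at 0.0779 CPM against 0.981 and 1.22 CPM in the other 2, and without that library its log2 fold change was 2.17 (edgeR FDR = 0.000248).

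**Figure D5:**
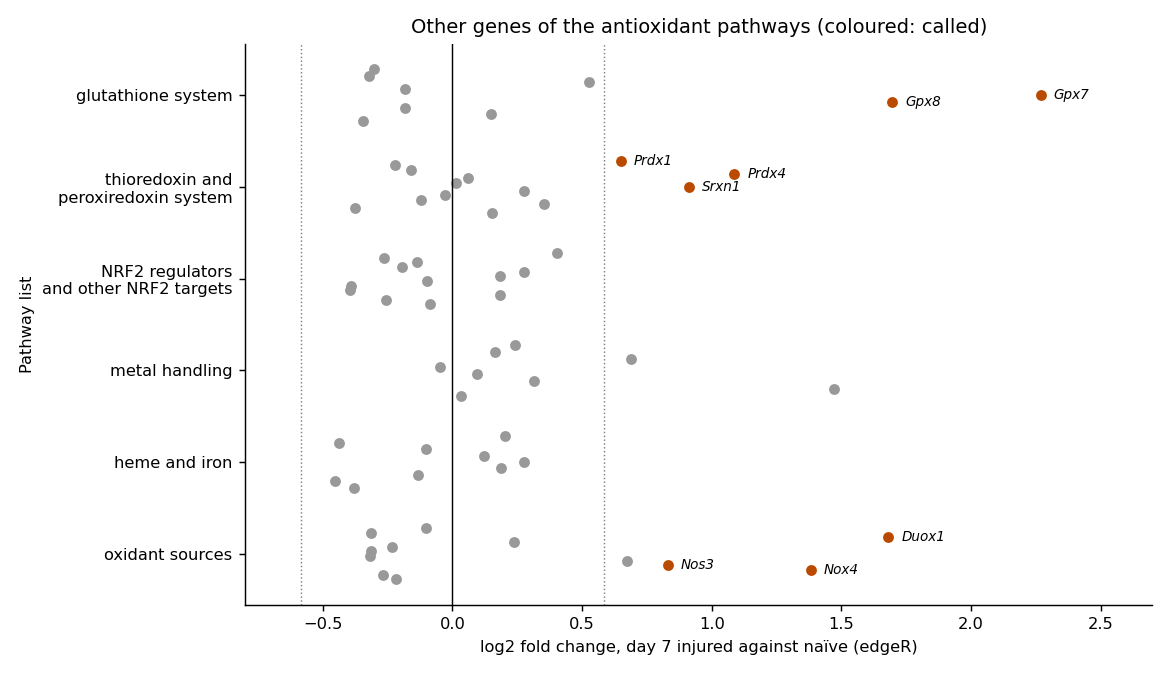
Log2 fold change of day 7 injured against naïve libraries for the 63 other pathway genes tested, 1 point per gene in 6 lists; called genes are coloured and named and dotted lines mark 1.5-fold. The called genes lie in the glutathione, thioredoxin and peroxiredoxin, and oxidant source lists, and all are higher.

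Of 8 metal handling genes tested, 1 rose against the contralateral knee. Slc39a14, a transporter that brings zinc and iron into cells, was 136.0, 130.6 and 159.5 CPM in day 7 injured libraries and 35.1, 37.0 and 45.3 CPM in day 7 contralateral libraries (log2 fold change 1.86, SE 0.63, edgeR FDR = 0.0482). It was also 130.6 CPM in naïve replicate 5, 140.6 CPM in day 1 contralateral replicate 3 and 130.3 CPM in day 1 injured replicate 2, against 27.7 to 54.8 CPM in the other libraries of these groups. Against naïve cartilage it was not called (log2 fold change 1.47, SE 0.543, edgeR FDR = 0.053). The call against the contralateral knee was lost without any single library of the 2 groups. Mtf1, the zinc sensor, lay between 38.8 and 48.7 CPM in every library.

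Of 9 heme and iron genes, none was called by edgeR, DESeq2 or limma-voom against naïve cartilage. There 3 had an unadjusted p under 0.05, against 41.1% of all genes. Against the day 7 contralateral knee 3 genes fell. They were Blvrb (log2 fold change -0.86, edgeR FDR = 0.0164), Tfrc, the transferrin receptor (-0.67, edgeR FDR = 0.0152), and Trf, transferrin (-0.81, edgeR FDR = 0.0107). Each was highest in day 7 contralateral replicate 1, at 203.2, 922.3 and 367.9 CPM. Without it the log2 fold changes were -0.35, -0.43 and -0.60, and none of the 3 was called (edgeR FDR = 0.133, 0.0991 and 0.0615). The 3 calls were also lost without injured replicate 3 (log2 fold changes -0.72, -0.53 and -0.72, edgeR FDR = 0.0986, 0.0967 and 0.0619). Blvrb and Tfrc are strongly expressed in red cell precursors, whose markers were also highest in contralateral replicate 1. The part of these cells in the 3 values was not tested.

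Over the 18 libraries, the genes most like Gpx3 in profile, among 11915 genes with a mean of at least 5 CPM, were Tspan2, Boc and Pltp, with a root mean square difference of centred log2 (CPM + 1) of 0.18, 0.18 and 0.19 against an SD of 0.51 for Gpx3 itself. The genes most like Sod3 were Ltbp2, Tgfbi and Mmp19 (0.27, 0.28 and 0.29 against an SD of 0.79). Those most like Mt1 were Il4ra, Tubb6 and P2ry6 and those most like Mt2 were Rrad, Msr1 and Serpina3n, a choice made after the values were seen, as neither metallothionein was called. Rrad was 22.1 CPM in day 1 contralateral replicate 3, 12.7 CPM in day 1 injured replicate 2 and 11.5 CPM in naïve replicate 5, and Il4ra 138.3, 95.1 and 122.5 CPM.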

How the data were processed

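RNA of pooled knee cartilage was sequenced by the authors from TruSeq stranded, ribosomal RNA depleted libraries in 18 samples, trimmed with Trimmomatic, and pseudo-aligned with Kallisto against GRCm38 transcripts. The submitters' processing notes name kallisto and DESeq2. The deposited values were used as they are: estimated counts per transcript without normalization, TPM values as deposited by the authors, which scale those counts by effective length and library total, and transcript lengths. An ACL library that mapped poorly was dropped in the study without being named, so all 18 were kept here.

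Of 137436 transcripts, 135107 (98.3%) were matched without version to a GENCODE gene (GRCm38). The others held between 0.667% and 3.90% of a library's counts and were left out. Estimated counts were summed per gene and rounded. Replicate libraries differed by more than sampling noise, so none was merged. Groups were taken from the labels, and replicate numbers follow accession order.

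The test was edgeR 4.0.16 (R 4.3.3), quasi-likelihood, with TMM normalization, its filter on low counts and a mean per group. Comparisons without day 7 contralateral libraries were fitted on 15 libraries (21129 genes) and the others on 18 (21262 genes). P-values were adjusted over all genes of the fit (FDR of at most 0.05, at least 1.5-fold). CPM was normalized over all 18 libraries. Alternatives were DESeq2's size factors, no filter, offsets for transcript length, limma-voom (limma 3.58.1), DESeq2 1.42.0, all 18 libraries, and each library left out. The test was tried on simulated data with independent libraries and 200 genes changed 3-fold. As the real libraries share mice, that trial does not show how the test performs on them. Genes named are the 10 listed genes, the pathway genes called at day 7 with Nfe2l2, Keap1 and Mtf1, the 3 most similar genes of each called gene, and the most abundant marker of each list. The markers called at day 7, Thy1 and Pdgfra by library, and the genes most like Mt1 and Mt2 were named after their values were seen. A gene of the oxidant production list is not reported by name here. These lists and the 10 genes were chosen with earlier results of these data known. Promoter windows were taken from RefSeq (GRCm38.p6), which held 8 of the 10 genes.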

Additional observations from a re-analysis of the deposited data

Results flagged for a closer look

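In the 6 naïve libraries, 5 of 21 measures checked (the 10 genes and the 11 marker sums) had 1 library far from the others by Dixon's criterion, where chance gives about 1 in 20 groups. Naïve replicate 5 was the highest for Sod3 (131.4 CPM), Mt1 (36.4 CPM) and Mt2 (67.0 CPM) and the lowest for Cat (117.7 CPM). These 4 flags come from the same library and are not independent. Naïve replicate 3 was the highest for the summed chondrocyte markers (7771 CPM). The groups of 3 libraries were not tested.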

How the results depend on the processing

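No paired analysis was possible because the labels do not say which libraries share the mouse pools that the study's methods mention, and the replicate numbers follow accession order. Under the 50 alternatives of normalization, filter, tool and fit, the count of called members changed once, from 2 to 3 with DESeq2 for day 7 injured against contralateral libraries. With each library left out in turn, it ran from 1 to 2 for day 7 injured against contralateral libraries (1 without contralateral replicate 1, injured replicate 2 or injured replicate 3) and from 1 to 2 for day 7 injured against naïve libraries (2 without naïve replicate 5). Where Sod3 was lost, Gpx1 was called instead without contralateral replicate 2 (log2 fold change -0.86), contralateral replicate 3 (-0.83) or injured replicate 1 (-0.82), and DESeq2 called it beside Sod3 (-0.67). Gpx3 was called under all alternatives in its 3 called comparisons, with log2 fold changes from 0.97 to 1.17 against naïve and from 0.71 to 0.94 against contralateral libraries. Some directions turned, each in a comparison where the gene was not called with all libraries by edgeR. Against the contralateral knee these were Sod2 with length offsets (0.0068), Keap1 with length offsets (-0.052) and, with libraries left out, Nqo1 (from -0.12 to 0.022, above 0 without contralateral replicate 3 or injured replicate 2) and Keap1 (from -0.023 to 0.17, below 0 without contralateral replicate 2 or 3). The others were Mtf1 in day 7 injured against naïve libraries (from -0.12 to 0.0017, above 0 without injured replicate 2), Gpx3 in day 1 injured against naïve libraries (from -0.29 to 0.032, above 0 without injured replicate 2), and Gpx1 in day 7 contralateral against naïve libraries (from -0.069 to 0.59, below 0 without contralateral replicate 1). Slc39a14 was not called against the contralateral knee with length offsets (edgeR FDR = 0.0546), and was called against naïve cartilage by limma-voom, on all 18 libraries, without the filter and without naïve replicate 5, and Prdx1 was under the 1.5-fold limit against the contralateral knee with DESeq2, its size factors or no filter and in 4 of 6 fits without 1 library. The causes were not tested. Whether Sod3 and Gpx1 were called at day 7 changed with single libraries. With 1 library left out, the log2 fold change against the contralateral knee stayed between 1.53 and 1.81 for Sod3. For Gpx1 it ran from -0.86 to -0.19. The injured and contralateral groups have 3 pools each, and intervals cover the spread between pools alone.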
